A study of Mus musculus with 16 samples.

Results

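The desmosome and cornified plaque genes described here were the 9 genes Dsp, Ppl, Evpl, Pkp1, Pkp2, Pkp3, Perp, Dsg2 and Dsc2, out of 27670 genes named on the array. They were chosen by function, and every probe that the array files assign to them by symbol, older symbol or accession was taken, which gave 20 of 41174 distinct probes. A total of 12 of these 20 probes, with at least 1 for each of the 9 genes, were well above background on both arrays of at least 1 group. The genes were tested in the brightest such probe among the 18993 genes that passed this filter.

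All samples were the mouse mammary tumour line 4TO7, grown in medium with 10% serum, in 8 groups of 2 arrays called repeats A and B. The 4 overexpression groups carried Cluster 1, Cluster 2 or both clusters of the miR-200 microRNA family, or CDH1, the gene of E-cadherin. Each had its own empty-vector control in the retroviral pMSCV backbone: a Puro vector for Cluster 1, the Hygro vector for Cluster 2, the Hygro and Puro vectors together for Clusters 1+2, and a separately labelled Puro vector group for CDH1. The design calls the repeats biological replicates. No source used here says whether they were separate infections or clones, and each p-value rests on the spread of these arrays alone. Each array compared the sample with a pooled reference RNA of 11 mouse cell lines, and a level below is log2 of sample over reference. The sample was labelled with Cy3 in the Hygro vector, Cluster 2, Hygro and Puro vector and Clusters 1+2 groups, and with Cy5 in the others, so levels are compared with the matched control only.

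The repeats of a group correlated between 0.937 and 0.980 over all genes, with a median absolute difference of 0.0828 to 0.108 on the log2 scale. The epithelial keratins Krt8 and Krt18 were well above background on all 16 arrays, as were the mesenchymal genes Vim and Col1a1. The leucocyte gene Ptprc reached that level on at most 6 arrays per probe and the endothelial genes Pecam1 and Cdh5 on at most 5 and 4. The probe of mouse Cdh1 was well above background on 2 of 2 CDH1 arrays and on 0 of 2 arrays of their Puro vector; no source used here says whether it lies within the introduced sequence.

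Desmosomes are buttons of adhesion that join the keratin filaments of neighbouring epithelial cells. Desmosomal cadherins, here Dsg2 and Dsc2, cross the membrane and bind the cell opposite; the armadillo proteins Pkp1, Pkp2 and Pkp3 (plakophilins) sit on the cadherin tails; and the plakin Dsp (desmoplakin) ties the plaque to keratin. Ppl (periplakin) and Evpl (envoplakin) are plakins of the desmosomal plaque and of the cornified envelope, the cross-linked shell of squamous cells. Perp is a tetraspan membrane protein of the desmosome whose gene is a target of p53 and p63. The miR-200 family maintains the epithelial state by repressing Zeb1 and Zeb2, which are transcriptional repressors of epithelial junction genes.

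The mature microRNAs of the family, as listed by RefSeq on GRCm38.p6, are shown because the 5 members fall into 2 seed groups; capitals mark the seed, bases 2 to 8. The labels do not say which members each cluster holds. The first 2 share 1 seed, and the other 3 share another.
mmu-miR-141-3p (chr6:124717917-124717938, minus strand): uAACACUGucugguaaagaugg
mmu-miR-200a-3p (chr4:156054911-156054932, minus strand): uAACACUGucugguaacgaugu
mmu-miR-200b-3p (chr4:156055685-156055706, minus strand): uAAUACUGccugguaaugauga
mmu-miR-200c-3p (chr6:124718324-124718346, minus strand): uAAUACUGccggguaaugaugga
mmu-miR-429-3p (chr4:156053916-156053937, minus strand): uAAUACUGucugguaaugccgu

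Dsp, Perp, Pkp1, Pkp2, Pkp3 and Evpl rose with both clusters of microRNAs, fewer of them rose with either cluster alone, and Ppl fell. By limma's moderated test with Benjamini-Hochberg adjustment over all genes (called at adjusted p under 0.05), 4 of the 9 were higher and 0 lower in Cluster 1, where 4.86% of all genes tested were called higher and 3.4% lower. In Cluster 2, 5 were higher and 0 lower, against 1.72% and 1.03% of all genes. In Clusters 1+2, 6 were higher and 1 lower, against 12.1% and 12.6%. In CDH1 cells 3 were higher and 2 lower, against 7.67% and 6.81%. The median log2 change of the 9 genes was 0.38 in Cluster 1, 0.38 in Cluster 2, 0.90 in Clusters 1+2 and 0.13 in CDH1, where the median of all genes was 0.00, 0.00, 0.01 and 0.01. With outlier spots kept, 0 of the 9 genes were called in Cluster 1, 1 in Cluster 2, 6 in Clusters 1+2 and 1 in CDH1. Under median centring in place of loess the median of all genes shifted to 0.13 in Cluster 2 and 0.11 in CDH1.

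The effects were also set against each other in the same fit. Cluster 1 and its vector were measured with another dye and on another slide than Cluster 2, Clusters 1+2 and their vectors. Dye and slide thus cannot be told apart from a difference of either effect from the Cluster 1 effect, here or below. Cluster 1 and CDH1 shared the dye but not the slide. Against the Cluster 2 effect, the Clusters 1+2 effect was higher for 4 of the 9 genes (Dsp, Perp, Pkp2 and Evpl) and lower for 0, where 2.89% and 3.31% of all genes were called. Against the Cluster 1 effect it was higher for 4 (Dsp, Perp, Pkp1 and Pkp2) and lower for 0, where 7.26% and 8.34% of all genes were called. The Cluster 1 effect was below the Cluster 2 effect for 2 genes (Dsp and Pkp1) and above it for 0, against 0.951% and 1.71% of all genes. It was above the CDH1 effect for 2 genes (Ppl and Evpl) and below it for 0, against 8.77% and 8.25%. In a contrast chosen after its values were seen, the Clusters 1+2 effect was above the sum of the Cluster 1 and Cluster 2 effects for 2 genes (Dsp and Pkp2) and below it for 1 (Perp), against 1.42% and 2.47% of all genes.

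**Figure D1:**
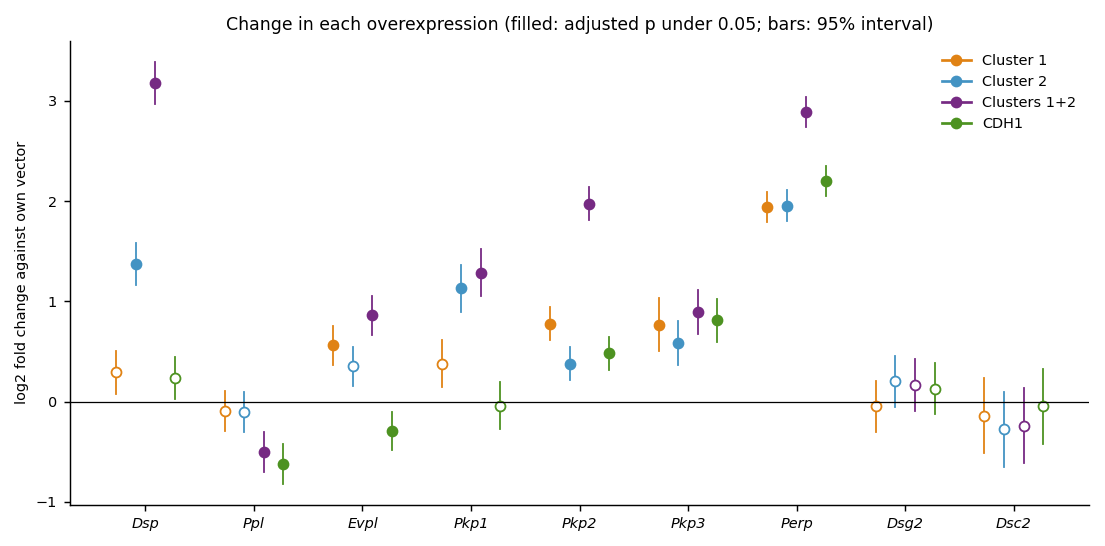
Log2 fold change of each gene (vertical axis) against its own vector in Cluster 1, Cluster 2, Clusters 1+2 and CDH1 cells, from 2 arrays a group; bars are 95% intervals and filled points passed adjusted p under 0.05. Dsp (3.18), Perp (2.89) and Pkp2 (1.98) have their largest rise in Clusters 1+2, Perp is high in all 4, and Ppl lies below 0 in each.

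Dsp, which links the desmosome to keratin filaments, had the largest change of the 9 genes, in Clusters 1+2. Its brightest probe lies at chr13:37617147-37617206 on the plus strand (mm7, the build of the array annotation). In Clusters 1+2 the log2 levels were 2.74 and 2.68, against -0.37 and -0.57 in the Hygro and Puro vectors. The combined cells were far above their controls, with no overlap. The change was 3.18 (SE 0.10, n = 2 and 2, limma adjusted p = 5.19e-10), a 9.06-fold rise, and it was 3.11 between the arrays of slide 1 and 3.25 between those of slide 2.

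In Cluster 2, Dsp stood at 0.89 and 0.74, against -0.50 and -0.61 in the Hygro vector. These groups were also apart, with a smaller gap. The change was 1.37 (SE 0.10, limma adjusted p = 4.54e-06; 1.40 on slide 1 and 1.35 on slide 2). Only 1 of 2 arrays of each of these 2 control groups was well above background.

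In Cluster 1, Dsp was 0.12 and 0.36, against -0.04 and -0.06 in its Puro vector, a change of 0.29 (SE 0.10) that did not pass the test (limma adjusted p = 0.0944). In CDH1 cells it was -0.05 and -0.04, against -0.21 and -0.34, and neither control array was well above background. The ratio changed by 0.23 on the log2 scale (limma adjusted p = 0.144). In the sample channel, where the reference does not correct for differences between arrays, CDH1 cells were at least 1.41-fold higher. In both comparisons the groups were apart on the ratio scale but close. In the sample channel alone, without the reference, Dsp was lower in Cluster 1 than in its Puro vector by 0.40 (log2 signal 7.53 against 7.93, limma adjusted p = 0.312).

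The effect on Dsp in Clusters 1+2 exceeded that in Cluster 2 by 1.81 (SE 0.14, limma adjusted p = 1.23e-05) and that in Cluster 1 by 2.89 (SE 0.14, limma adjusted p = 2.79e-07). The Cluster 1 effect was below the Cluster 2 effect by 1.08 (SE 0.14, limma adjusted p = 0.00142). The Cluster 1 and CDH1 effects on Dsp differed by 0.06 (95% interval -0.24 to 0.36). In the sample channel alone this difference was -1.09 and called (limma adjusted p = 0.0237).

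Dsp has 4 probes, and the probes nearest the end of the transcript carried the change. The 3 other than the brightest are printed because they show where in the gene signal was seen; no part is capitalised. Each is a 60-base oligonucleotide on mm7, plus strand.
Dsp A_52_P242544 (chr13:37616760-37616819): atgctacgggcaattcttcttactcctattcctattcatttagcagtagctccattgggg
Dsp A_52_P549815 (chr13:37614684-37614743): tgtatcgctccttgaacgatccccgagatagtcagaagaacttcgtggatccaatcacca
Dsp A_51_P201884 (chr13:37612506-37613605): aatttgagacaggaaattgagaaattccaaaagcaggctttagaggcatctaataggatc

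The coordinates of the last probe cover 1100 bases and so include sequence outside the oligonucleotide. The first of these, centred 387 bases upstream of the brightest probe, also rose in Clusters 1+2, from -0.21 and -0.42 to 2.16 and 1.72, a change of 2.26 (SE 0.15, limma adjusted p = 1.99e-07 in a fit over all probes). In Cluster 2 its control was not well above background on either array. There the ratio rose by 0.78 on the log2 scale (limma adjusted p = 0.0130), and the sample channel was at least 1.66-fold higher. In Cluster 1 the ratio changed by 0.52 (limma adjusted p = 0.0554), with at least 1.86-fold in the sample channel. With this probe the Cluster 1 and Cluster 2 effects differed by -0.26 (95% interval -0.70 to 0.19, limma adjusted p = 0.598), so the difference seen with the brightest probe was not called. The probes centred 2463 and 4121 bases upstream were well above background on 0 and 2 of 16 arrays and did not pass the filter.

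The promoter table of RefSeq (GRCm38.p6) held Dsp among the 9 genes. It was searched on both strands for CAGGTG, whose reverse complement is CACCTG, the E-box that Zeb proteins bind, because the Zeb2 level moved opposite to Dsp. The window from 250 bases before to 50 after the Dsp start held 1 match, at bases 4 to 9 after the start, in capitals here. A match is present in 6640 of 32851 promoter windows of this length (20.2%).
Dsp start region (chr13:38151285-38151314, plus strand): gaagaagccgacCAGGTGtggcctgggcgc

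Zeb2 fell in Clusters 1+2 by 2.10, in Cluster 2 by 0.77 and in Cluster 1 by 0.39 on the log2 scale (limma adjusted p = 1.59e-09, 6.70e-05 and 0.00587), and was not called in CDH1 cells. Zeb1 was not called in any of the 4 comparisons, with changes of 0.26 in Cluster 1, -0.32 in Cluster 2, 0.00 in Clusters 1+2 and -0.41 in CDH1. Whether either bears on Dsp was not tested.

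Ppl, the plakin of the plaque and cornified envelope, fell in Clusters 1+2 and, in its brightest probe, in CDH1 cells. That brightest probe lies at chr16:4760132-4760190 on the minus strand (mm7). The Clusters 1+2 levels were 0.81 and 0.58, against 1.17 and 1.20 in the Hygro and Puro vectors. Both combined arrays were below both controls, by 0.37 on slide 1 and 0.63 on slide 2. The change was -0.50 (SE 0.09, limma adjusted p = 0.00141), and a second probe at chr16:4770749-4770808, centred 10618 bases upstream, gave -0.61 (SE 0.11, limma adjusted p = 0.00166).

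In CDH1 cells Ppl was 0.29 and 0.39, against 0.91 and 1.00 in their Puro vector, a change of -0.62 (SE 0.09, limma adjusted p = 0.000630). The groups did not overlap, but the second probe of Ppl gave 0.05 (95% interval -0.20 to 0.29, limma adjusted p = 0.881) and showed no fall. This second probe was dimmer (mean log2 sample signal 6.85 against 8.75) and may understate a change. It was well above background on 1 of 2 arrays of the Puro vector for CDH1. The change with the brightest probe was -0.09 (limma adjusted p = 0.771) against the Puro vector made for Cluster 1. In Cluster 1 and Cluster 2 the changes were -0.09 (95% interval -0.29 to 0.11) and -0.10 (95% interval -0.30 to 0.10) and were not called. The Cluster 1 effect on Ppl exceeded the CDH1 effect by 0.53 (limma adjusted p = 0.0137), but with the second probe the difference was -0.13.

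Evpl, the partner of Ppl in the envelope, rose with the microRNAs in the probe at chr11:116329652-116329711 (minus strand, mm7). It stood at 0.89 and 0.71 in Clusters 1+2, against -0.07 and -0.05 in the control, a change of 0.86 (SE 0.09, limma adjusted p = 1.37e-05; 0.96 on slide 1 and 0.76 on slide 2). In Cluster 1 it was 0.65 and 0.54, against 0.00 and 0.07, a change of 0.56 (SE 0.09, limma adjusted p = 0.00192). The overexpressing arrays were above the controls in both comparisons.

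In Cluster 2, Evpl was 0.36 and 0.15, against -0.05 and -0.16, a change of 0.35 that did not pass the test (limma adjusted p = 0.0586). In CDH1 cells it was -0.03 and -0.03, against 0.32 and 0.21, a fall of -0.29 (SE 0.09, limma adjusted p = 0.0461). These arrays lay below their controls, close to the threshold: with any 1 of the 4 arrays left out the limma adjusted p was between 0.0736 and 0.221. The Cluster 1 effect on Evpl exceeded the CDH1 effect by 0.85 (SE 0.13, limma adjusted p = 0.000489), and the Clusters 1+2 effect exceeded the Cluster 2 effect by 0.51 (SE 0.13, limma adjusted p = 0.0319). The latter call was kept in 7 of 21 alternatives, and was lost with the second probe (0.31, limma adjusted p = 0.195) and without Hygro vector A, Cluster 2 B, Hygro and Puro vector A or B, or Clusters 1+2 A (limma adjusted p between 0.0715 and 0.129).

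The second Evpl probe, centred 263 bases upstream of the brightest, is printed because it moved less.
Evpl A_51_P324834 (chr11:116329915-116329974, minus strand, mm7): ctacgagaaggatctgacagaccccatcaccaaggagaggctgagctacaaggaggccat

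Its ratio rose in Clusters 1+2 by 0.35 (SE 0.09, limma adjusted p = 0.0106). There 1 of 2 arrays was well above background, against 2 of 2 control arrays. This probe was dimmer than the brightest, with a mean log2 sample signal of 6.59 against 7.94. In Cluster 1 it changed by 0.08 (95% interval -0.11 to 0.27, limma adjusted p = 0.753) and in CDH1 cells by -0.01 (95% interval -0.20 to 0.18, limma adjusted p = 0.956), so the calls in these 2 comparisons rest on the brightest probe. The difference between the Cluster 1 and CDH1 effects with this probe was 0.10 (limma adjusted p = 0.721).

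**Figure D2:**
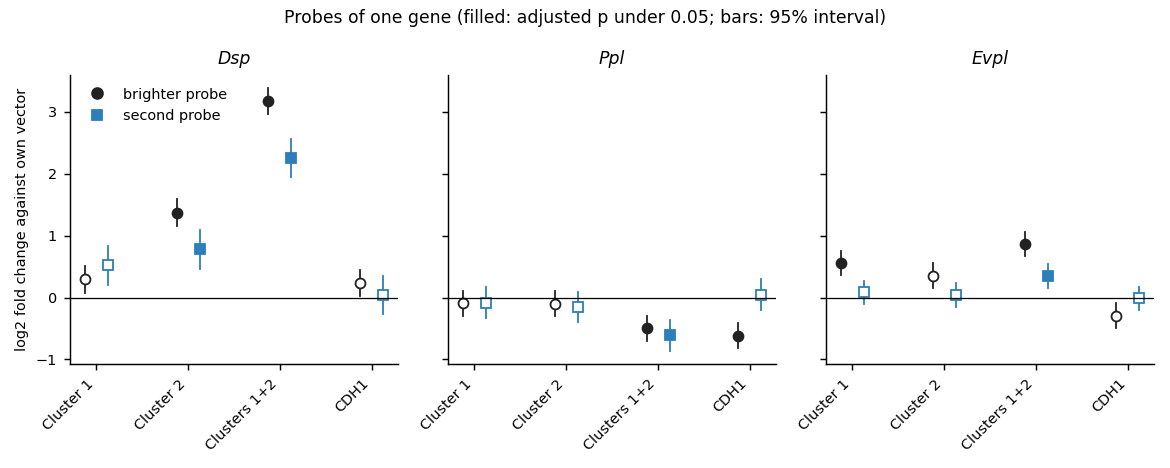
Log2 fold change (vertical axis) in the 4 comparisons for the brighter and the second probe of Dsp, Ppl and Evpl; bars are 95% intervals and filled points passed adjusted p under 0.05 in a fit over all probes. Both probes of each gene pass in Clusters 1+2, while those of Ppl part in CDH1 cells and those of Evpl in Cluster 1.

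The plakophilins bind the tails of the cadherins. Pkp2 (probe at chr16:15815912-15815971, plus strand, mm7) had log2 levels of -0.02 and 0.04 in Clusters 1+2, against -2.00 and -1.94 in the control. The change was 1.98 (SE 0.08, limma adjusted p = 2.99e-09), a 3.93-fold rise, and was 1.98 on slide 1 and 1.97 on slide 2. The combined cells stood clear of their controls.

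In Cluster 1, Pkp2 was -0.71 and -0.84, against -1.62 and -1.50, a change of 0.78 (SE 0.08, limma adjusted p = 4.91e-05). In CDH1 cells it was -1.23 and -1.11, against -1.68 and -1.61, a change of 0.48 (SE 0.08, limma adjusted p = 0.000895). In Cluster 2 it was -1.39 and -1.37, against -1.80 and -1.72, a change of 0.38 (SE 0.08, limma adjusted p = 0.0160). All arrays with an overexpression were above their controls. The Cluster 2 call was lost without any 1 of its 4 arrays (limma adjusted p between 0.0529 and 0.107).

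The Pkp2 effect in Clusters 1+2 exceeded that in Cluster 2 by 1.60 (SE 0.11, limma adjusted p = 5.26e-06) and that in Cluster 1 by 1.20 (SE 0.11, limma adjusted p = 1.32e-05). The Cluster 1 effect was above the Cluster 2 effect by 0.40 (95% interval 0.17 to 0.63), which was not called over all genes (limma adjusted p = 0.0697).

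Pkp1, a plakophilin of stratified epithelia, rose in Cluster 2 and in Clusters 1+2. Its probe lies at chr1:135757658-135757717 on the minus strand (mm7). In Cluster 2 the levels were 1.07 and 1.07, against -0.01 and -0.12, a change of 1.13 (SE 0.11, limma adjusted p = 6.70e-05; 1.08 on slide 1 and 1.18 on slide 2). In Clusters 1+2 they were 1.37 and 1.48, against 0.16 and 0.12, a change of 1.29 (SE 0.11, limma adjusted p = 2.16e-06; 1.21 on slide 1 and 1.36 on slide 2). Both groups were well apart from their controls.

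In Cluster 1, Pkp1 was -0.24 and -0.44, against -0.59 and -0.85, a change of 0.38 (limma adjusted p = 0.0515). In CDH1 cells it was -0.95 and -0.86, against -0.72 and -1.00, and these values overlapped (change -0.04, 95% interval -0.28 to 0.19). Only 1 of 2 arrays of the Puro vector for CDH1 was well above background. The Cluster 1 effect on Pkp1 was below the Cluster 2 effect by 0.75 (SE 0.15, limma adjusted p = 0.0218) and below the Clusters 1+2 effect by 0.91 (SE 0.15, limma adjusted p = 0.00149). The first of these differences was lost without Hygro vector repeat B, Cluster 2 repeat B, Cluster 1 repeat B or Puro vector repeat A (limma adjusted p between 0.0602 and 0.0874). The Clusters 1+2 and Cluster 2 effects differed by 0.16 (95% interval -0.18 to 0.49), which was not called.

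Pkp3, a plakophilin found widely in epithelia, rose in all 4 comparisons (probe at chr7:137507588-137507647, plus strand, mm7). The combined cells had 2.57 and 2.34, against 1.66 and 1.46, a change of 0.90 (SE 0.10, limma adjusted p = 3.81e-05). In CDH1 cells it was 1.62 and 1.57, against 0.86 and 0.71, a change of 0.81 (SE 0.10, limma adjusted p = 0.000223). No array overlapped with its control group.

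In Cluster 1 the Pkp3 spot of repeat A was marked as an outlier by the scanner software and left out. Repeat B gave 2.02, against 1.22 and 1.29 in the Puro vector, a change of 0.77 (SE 0.12, n = 1 and 2, limma adjusted p = 0.00236). This test assumes that the single array varies like the other groups, and with the marked spot kept the change was 0.69 and not called (limma adjusted p = 0.398). In Cluster 2 it was 2.17 and 2.30, against 1.60 and 1.70, a change of 0.59 (SE 0.10, limma adjusted p = 0.00735). That call was lost without Cluster 2 repeat B (limma adjusted p = 0.0682). None of the 4 tests of a difference between effects called Pkp3; the Clusters 1+2 and Cluster 2 effects differed by 0.31 (95% interval 0.00 to 0.61).

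Perp, the tetraspan desmosome protein, rose in every overexpression, CDH1 included (probe at chr10:18579623-18579682, plus strand, mm7). It stood in Clusters 1+2 at 2.42 and 2.45, against -0.42 and -0.50. In Cluster 2 it was 1.63 and 1.59, against -0.37 and -0.32. In Cluster 1 it was 0.86 and 1.00, against -0.99 and -1.04. These arrays were all far above their controls.

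The changes in Perp were 2.89 in Clusters 1+2, 1.96 in Cluster 2 and 1.94 in Cluster 1 (SE 0.07 each; limma adjusted p = 7.12e-11, 1.28e-08 and 1.39e-08). By slide they were 2.84 and 2.94 in Clusters 1+2 and 2.00 and 1.91 in Cluster 2. The Clusters 1+2 effect exceeded the Cluster 2 effect by 0.93 and the Cluster 1 effect by 0.95 (SE 0.10 each; limma adjusted p = 0.000116 and 4.72e-05). The difference from Cluster 1 became -0.34 (limma adjusted p = 0.293) when the spread of the arrays was scaled to be equal. The Cluster 1 and Cluster 2 effects differed by -0.01 (95% interval -0.23 to 0.20), and with scaled spread by 1.05 (limma adjusted p = 0.00674).

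In CDH1 cells Perp was -0.02 and -0.06, against -2.29 and -2.20 in their Puro vector, of which 1 of 2 arrays was well above background. The arrays were far apart, and the change was 2.20 (SE 0.07, limma adjusted p = 6.05e-09). For Perp the Cluster 1 effect minus the CDH1 effect was -0.26 (95% interval -0.47 to -0.04), which was not called over all genes (limma adjusted p = 0.100).

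**Figure D3:**
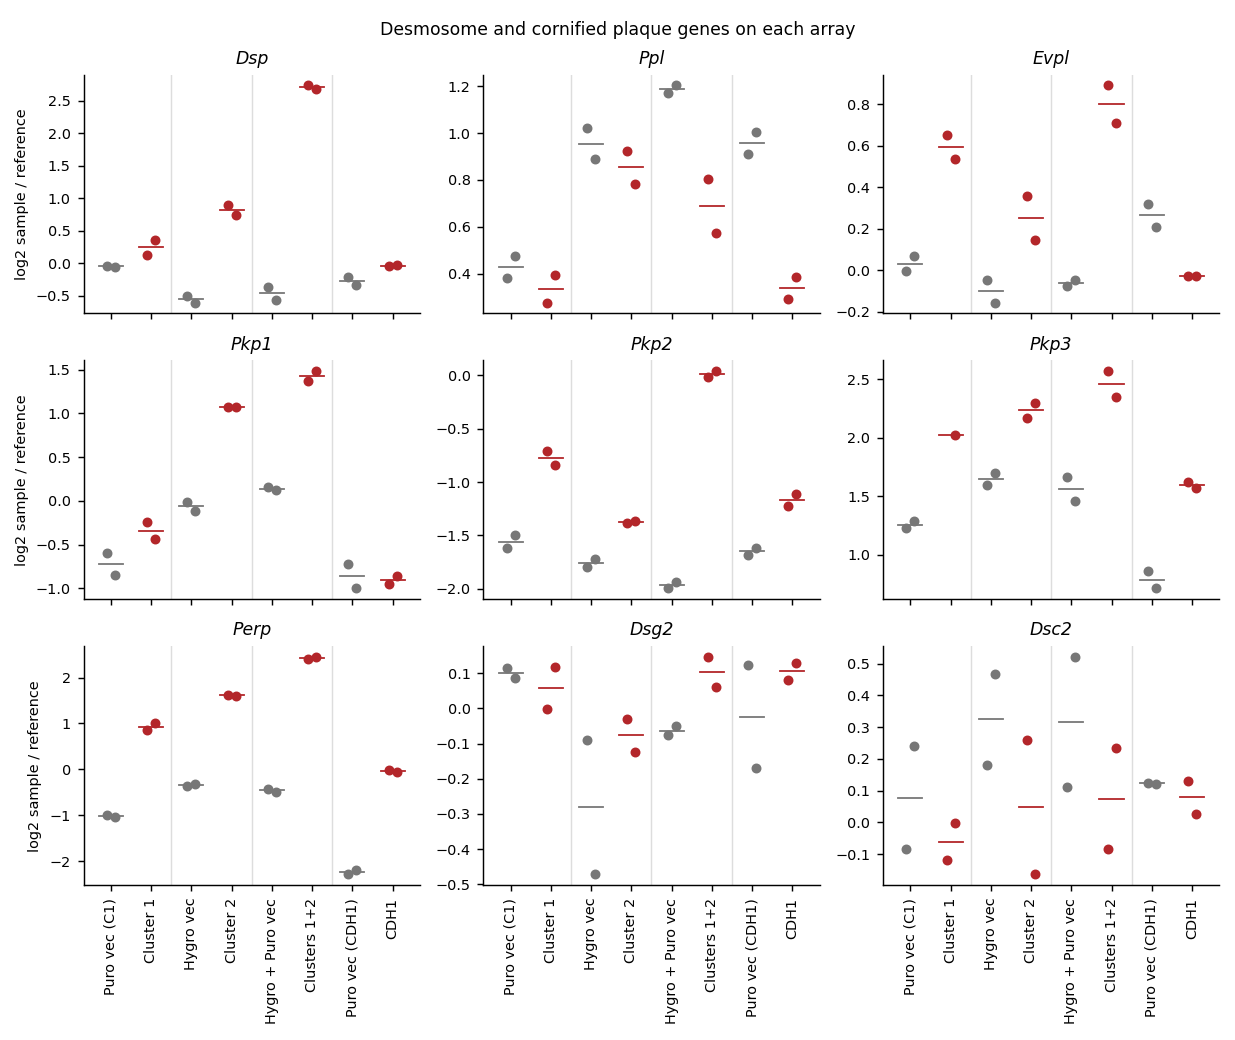
Log2 sample over reference on each array (vertical axis, own scale per gene) for the 4 control groups in grey and the 4 overexpression groups in red; points are repeats A and B and lines are group means. Dsp at 2.74 and 2.68 and Pkp2 at -0.02 and 0.04 in Clusters 1+2 lie far above their controls, and Perp at -2.29 and -2.20 in the Puro vector group for CDH1 lies below -0.99 and -1.04 in that for Cluster 1.

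The 2 Puro vector groups carry the same vector by their labels, and 3 of the 9 genes differed between them: 1 was higher and 2 were lower in the group made for CDH1, against 5.16% and 4.87% of all genes. Perp was lower there by 1.23 (difference -1.23, SE 0.07, limma adjusted p = 6.49e-07), Pkp3 by 0.47 (difference -0.47, SE 0.10, limma adjusted p = 0.0102) and Ppl was higher by 0.53 (SE 0.09, limma adjusted p = 0.00264). The second, dimmer Ppl probe gave -0.07 (limma adjusted p = 0.822). The Pkp3 call was lost with the replicate block (-0.39, limma adjusted p = 0.154) and without repeat B of either Puro vector (limma adjusted p = 0.0930 and 0.0740). Of 5 tested endothelial markers, 3 also had a higher ratio in the group made for CDH1 (limma adjusted p between 0.000224 and 0.0138). The differences were 0.75 for Cdh5, 0.60 for Emcn and 0.53 for Kdr. These 3 markers were well above background on 0 of 2 arrays of that group, against 2 of 2 arrays of the group made for Cluster 1. Their part in the differences of the desmosome genes was not tested. The groups were hybridised on different slides, so slide and control group cannot be told apart.

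Measured against the other Puro vector, Cluster 1 had 6 of the 9 genes higher and 1 lower (4.8% and 3.84% of all genes), and CDH1 had 2 higher and 0 lower (1.25% and 1.15%). Perp was still higher in both, by 3.17 in Cluster 1 and by 0.97 in CDH1 (limma adjusted p = 6.77e-11 and 3.73e-05). Pkp2 was also higher in both, by 0.87 and 0.39 (limma adjusted p = 1.48e-05 and 0.0186). In CDH1 cells the calls of Pkp3 (0.34, limma adjusted p = 0.112), Ppl (-0.09) and Evpl (-0.06) ended.

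**Figure D4:**
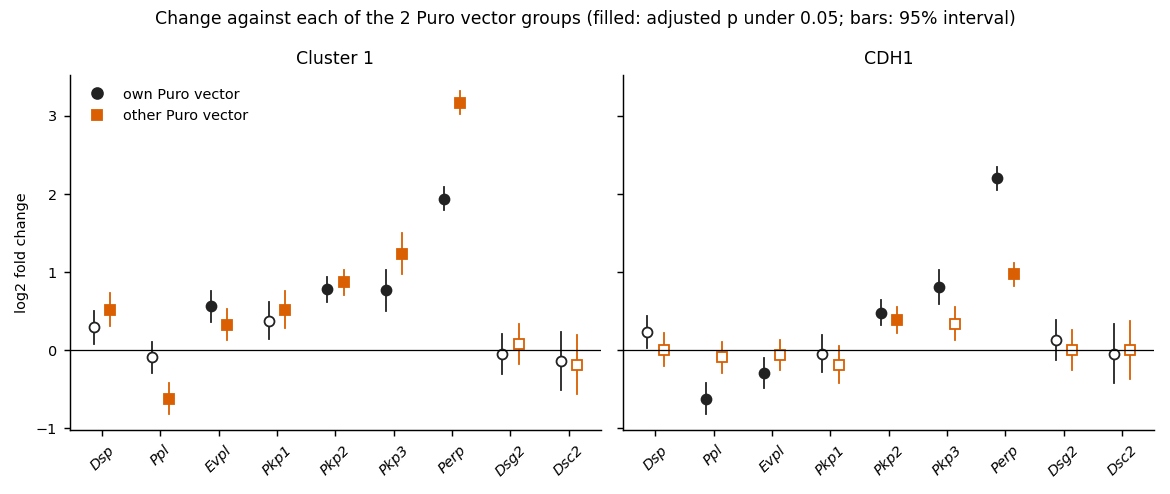
Log2 fold change (vertical axis) in Cluster 1 (left) and CDH1 cells (right) against their own and against the other Puro vector group; bars are 95% intervals and filled points passed adjusted p under 0.05. In CDH1 cells Perp is 2.20 against its own and 0.97 against the other group, while Pkp2 is 0.48 and 0.39.

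The desmosomal cadherins Dsg2 and Dsc2 were near background. Dsg2 has 5 probes and Dsc2 has 3, and 1 of each passed the filter, being well above background on 9 and 6 of 16 arrays. Over the 16 arrays the levels of the Dsg2 probe ranged from -0.47 in Hygro vector repeat B to 0.15 in Clusters 1+2 repeat A. Those of the Dsc2 probe ranged from -0.16 in Cluster 2 repeat B to 0.52 in Hygro and Puro vector repeat B. These ranges span both dye orientations.

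Neither cadherin was called in any comparison by limma, and 0 of their tests had an unadjusted p under 0.05. The Dsg2 change in Clusters 1+2 was 0.17 (95% interval -0.09 to 0.42), with 0 of 2 arrays of the combined cells well above background. Dsc2 changed by -0.24 (95% interval -0.61 to 0.13), also with 0 of 2 combined arrays well above background. The intervals in the other 3 comparisons lay between -0.30 and 0.46 for Dsg2 and between -0.65 and 0.33 for Dsc2. A change in these genes below the background of the array was not detectable.

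Over the 9 genes, all arrays of an overexpression were above all arrays of its control for 5 genes in Cluster 1, 6 in Cluster 2, 7 in Clusters 1+2 and 4 in CDH1. Of all genes measured on all 4 arrays, 27%, 21.9%, 29.5% and 28.2% showed this. All arrays were below those of the control for 0, 0, 1 and 2 of the 9 genes, against 24.3%, 22.3%, 28.3% and 26.2% of all genes. Pkp3 was not counted in Cluster 1 because 1 array was missing.

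Of 10 other desmosome genes, 6 were tested. For this list and those below, the shares of all genes called higher and lower were 4.86% and 3.4% in Cluster 1. These shares were 1.72% and 1.03% in Cluster 2, 12.1% and 12.6% in Clusters 1+2, and 7.67% and 6.81% in CDH1. Jup (plakoglobin, the armadillo protein shared with adherens junctions) rose in Cluster 2 by 0.37 and in Clusters 1+2 by 0.71. It was near background, with 1 of 2 Cluster 2 arrays and 1 of 2 arrays of each control well above it. Pkp4 rose in Clusters 1+2 by 0.45 and in CDH1 by 0.39. By limma 0 of the 6 were called in Cluster 1, 0 of them at an unadjusted p under 0.05, and none was lower in any of the 4 comparisons; its median change in Clusters 1+2 was 0.25. The limma adjusted p of these 4 changes lay between 0.000204 and 0.0288.

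Of 33 cornified envelope genes, 24 were tested. Of these, 2 were higher and 4 lower in Clusters 1+2, where 12.1% and 12.6% of all genes were called, 0 and 2 in CDH1, 1 and 1 in Cluster 1 and 1 and 0 in Cluster 2. The median changes lay between -0.05 and 0.03. In Clusters 1+2, S100a8 fell by 2.10, S100a7a rose by 0.71, Cstb (cystatin B) fell by 0.71 and Krt10 fell by 0.42 on the log2 scale. In CDH1 cells S100a8 fell by 1.53 and Cstb fell by 0.55.

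Of 12 keratins tested, the filament proteins that desmosomes anchor, 3 rose and 0 fell in Cluster 1, 3 and 0 in Cluster 2, 5 and 1 in Clusters 1+2 and 0 and 1 in CDH1. Krt7 rose by 3.52, 4.19 and 2.11 in the 3 microRNA comparisons, in that order. Krt18 rose by 1.26, 1.04 and 1.56. Krt8 rose by 0.81 in Cluster 1, by 0.65 in Cluster 2 and by 0.85 in Clusters 1+2, and it fell by 0.55 in CDH1. Krt19 rose by 1.73 in Clusters 1+2. The keratin that fell there was Krt23, which was well above background on 2 of 2 control arrays and on 0 of 2 arrays of Clusters 1+2 (limma adjusted p = 5.66e-06).

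Of 15 tested regulators reported for desmosome genes, 0 were higher and 1 lower in Cluster 1, 2 and 1 in Cluster 2, 5 and 4 in Clusters 1+2 and 1 and 1 in CDH1. Beside Zeb2, the epithelial splicing factor Esrp2 rose by 1.94 in Clusters 1+2. Esrp1, a related splicing factor, was well above background on 2 of 2 arrays of Clusters 1+2 and on 0 of 2 control arrays. In Cluster 2, Esrp2 rose by 0.79, and in CDH1, Klf4 fell by 0.75 and Klf5 rose by 0.32.

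Perp is a p53 target, and 21 of 22 other listed p53 targets were tested. They moved both ways in Clusters 1+2, where 6 rose and 5 fell. Plk2 rose by 1.12 and Aen by 0.80, while Cdkn1a (p21) fell by 0.90 and Phlda3 by 0.80. In Cluster 1, 4 rose and 0 fell, with Trp53inp1 at 0.65 and Fas at 0.54. In CDH1, 1 rose and 4 fell, with Trp53inp1 at -0.75 and Sesn2 at -0.64. In Cluster 2, 0 of the 21 were called by limma, and 6 had an unadjusted p under 0.05. Of all genes tested, 1.72% were called higher there and 1.03% lower. Whether p53 bears on Perp was not tested.

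The adherens junction list had 10 tested genes, with 3 higher and 0 lower in Cluster 1, 1 and 0 in Cluster 2, 4 and 0 in Clusters 1+2 and 1 and 1 in CDH1. Cdh1 (E-cadherin) rose by 1.21 in Cluster 1, 1.93 in Cluster 2 and 2.86 in Clusters 1+2. It was also the gene called higher in CDH1 cells, by 0.61, which cannot be told apart from the introduced sequence. Nectin2 rose by 0.75 in Cluster 1 and 0.80 in Clusters 1+2. Ctnnb1 (beta-catenin) rose by 0.66 in Cluster 1 and fell by 0.40 in CDH1.

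Some markers of cell state moved in the same comparisons. Of 7 tested myoepithelial markers, 1 rose and 1 fell in Clusters 1+2, and 0 rose and 1 fell in CDH1. In Cluster 1 and in Cluster 2, 0 of these 7 were called. Their median changes lay between -0.13 and 0.07. Of 11 luminal epithelial markers, which include Cdh1, Krt7, Krt8, Krt18 and Krt19 above, 6 rose in Cluster 1, 5 in Cluster 2 and 11 in Clusters 1+2, with 0 lower, and 1 rose and 1 fell in CDH1. In CDH1 cells the marker that rose was Cdh1, by 0.61, which cannot be told apart from the introduced E-cadherin sequence. The marker that fell there was Krt8. The mean log2 level of the 11 luminal markers was 1.05 and 1.00 on the Clusters 1+2 arrays and -0.77 and -0.76 on the controls. Of 11 tested fibroblast markers, 5 fell in CDH1, 3 in Clusters 1+2, 1 in Cluster 2 and 0 in Cluster 1, and none rose. Of all genes, 6.81%, 12.6%, 1.03% and 3.4% were called lower in these comparisons, in that order. No immune or endothelial marker was called in these 4 comparisons by limma (8 and 5 tested), with at most 1 of each list at an unadjusted p under 0.05. Their part in the results on the desmosome genes was not tested; fewer cells expressing a gene and less RNA per cell cannot be told apart in these bulk samples.

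Genes whose pattern was most like that of a desmosome gene were named by the Pearson correlation of log2 levels, each less the mean of its own controls, over 13173 genes and 16 arrays. The arrays share the groups, so these are descriptions. Closest to Dsp were Lamb3 (r = 0.993), Endod1 (0.990) and Crb3 (0.987), and closest to Perp were Shtn1 (0.986), Lsr (0.984) and Rassf7 (0.983). Pkp1 was most like Has2 (0.983), Pkp2 like Agpat5 (0.976), Evpl like Sdc1 (0.985) and Ppl like Krt76 (0.960). Pkp3 was most like Shtn1 (0.962, 15 arrays), Dsg2 like Cnnm3 (0.921) and Dsc2 like Tmem39b (0.854).

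Among the desmosome genes themselves, Perp and Pkp3 were the most alike (r = 0.976 over 15 arrays). Dsp correlated with Pkp1 (0.905) and Pkp2 (0.893) over 16 arrays, and Perp with Ppl at -0.761.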

How the data were processed

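RNA (175 ng per sample) from 16 samples was hybridised with a reference to 2-colour Agilent arrays. The deposited scanner files hold spot intensity in both channels, made by the authors with Feature Extraction 9.5.3.1 per the file headers, with probe positions on mm7. The deposited log10 ratio of the scanner files equals the authors' value table to within 8.06e-08, and was not the basis of any test.

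Spots marked as outliers by the software (335 to 1675 per array, control spots included) were left out. Background was corrected by normexp with an offset of 50, loess was then fitted within arrays, giving control spots a weight of 0, and ratios were turned to sample over reference. A log2 change understates the change of dim genes because of the offset. Of the probes, 22951 were named by accession, 6659 by symbol, 3109 by older symbol and 8455 by the file's own name. Among the genes, 18993 passed the background filter. The fit was limma 3.58.1 in R 4.3.3, with 8 group means, and Benjamini-Hochberg adjustment; 4 contrasts set each overexpression against its own vector, 4 compared effects, 1 compared the Puro vectors and 1, chosen after its values were seen, set the Clusters 1+2 effect against the sum of the separate effects. The tests were checked on simulated data. An "at least" fold sets the mean log2 sample signal, after loess and Aquantile, against the mean over dim arrays of the higher of 2 values: the lowest signal well above background there and the probe's own. The number of arrays limits the precision. The rule named all 9 genes, at most the 4 largest called changes of each other list in a comparison, and the likest genes. Krt8 in Clusters 1+2 is given in addition. The 9 genes and the lists were chosen with earlier results of these data known. Alternatives covered the offset, normalisation, marked spots, filter, probe choice, blocks, arrays and control; the second probes alone were chosen after seeing the data. The values of 1 gene of the regulator list are not reported here.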

Additional observations from a re-analysis of the deposited data

Results flagged for a closer look

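Perp, Pkp3 and Ppl differed between the 2 control groups that carry the same Puro vector, so the same contrast of an overexpression with a Puro vector gives different values by control group. The difference, group made for CDH1 minus group made for Cluster 1, was -1.23 for Perp, -0.47 for Pkp3 and 0.53 for Ppl. The Pkp3 difference was not called with the replicate block (-0.39, limma adjusted p = 0.154), and the second, dimmer Ppl probe gave -0.07. No group was large enough for an outlier test.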

How the results depend on the processing

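In Clusters 1+2 the count of called genes was 7 and stayed at 6 to 7 under all alternatives run; Dsp, Perp, Pkp1, Pkp2, Pkp3 and Evpl kept their call there under each. Counts that moved by over 1.5 times follow, with the cause not tested unless the alternative's own construction gives it. With outlier spots kept, 0 genes were called in Cluster 1 (4 in the main setting), 1 in Cluster 2 (5), 1 in CDH1 (5), 1 in each of the differences of Clusters 1+2 from Cluster 2 and from Cluster 1 (4 each), and 0 in Cluster 1 minus Cluster 2 (2), Cluster 1 minus CDH1 (2) and between the Puro vectors (3). In Cluster 2, 3 were called with an offset of 10, processed signals, scaled spread or only the arrays compared. Clusters 1+2 minus Cluster 2 had 2 with processed signals or scaled spread, and Clusters 1+2 minus Cluster 1 had 1 with scaled spread. Cluster 1 minus Cluster 2 had 1 with an offset of 10, scaled spread or only the arrays compared and 0 with processed signals. Cluster 1 minus CDH1 had 1 under median centring or the mean over probes, which also gave 3 in CDH1. Clusters 1+2 minus the summed effects, a contrast chosen after seeing the data, had 1 of 3 with processed signals and 1 with outlier spots kept. The Puro vectors differed in 6 with processed signals, and the other Puro vector gave 7 in Cluster 1 and 2 in CDH1. Leaving out 1 array gave 3 to 5 in Cluster 1, 4 to 4 in Cluster 2 and in CDH1, 1 to 2 in Cluster 1 minus Cluster 2 (1 without Hygro vector B, Cluster 2 B, Cluster 1 B or Puro vector A) and 1 to 2 in Cluster 1 minus CDH1 (1 without CDH1 A or Cluster 1 B).

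Of 1699 alternative values of single genes, 1438 kept their direction and their side of the threshold, 106 were no longer called, 39 became called and 116 changed direction, of which 109 were called in neither setting. With processed signals the log2 values of opposite sign were 0.080 for Dsg2 in Cluster 1, -0.024 for Dsg2 in Cluster 2, and -0.21 for Dsg2 in Clusters 1+2. The same setting gave 0.62 for Pkp1 and 1.00 for Dsc2 in CDH1, -0.63 for Dsc2 in Clusters 1+2 minus Cluster 2, and -0.12 for Pkp3 and -0.29 for Dsg2 in Clusters 1+2 minus Cluster 1. It also gave 0.20 for Perp, -0.033 for Ppl, 0.10 for Dsg2 and -0.27 for Dsc2 in Cluster 1 minus Cluster 2, -0.62 for Dsp, -0.18 for Pkp1, -0.29 for Pkp2 and 0.19 for Pkp3 in Cluster 1 minus CDH1, and -0.27 for Dsg2 in Clusters 1+2 minus the summed effects. In the sample channel alone the log2 values of opposite sign were -0.40 for Dsp in Cluster 1, -0.031 for Dsg2 in Cluster 2, and -0.034 for Dsg2 in Clusters 1+2. The same setting gave -0.17 for Dsc2 in Clusters 1+2 minus Cluster 2, -0.17 for Evpl in Clusters 1+2 minus Cluster 1, and 0.10 for Perp in Cluster 1 minus Cluster 2. It also gave -1.09 (limma adjusted p = 0.0237) for Dsp, 0.25 for Pkp3 and 0.028 for Dsc2 in Cluster 1 minus CDH1, -0.30 for Dsc2 in the Puro vector comparison, and 0.028 for Pkp1 and -0.019 for Dsc2 in Clusters 1+2 minus the summed effects. With outlier spots kept the log2 values of opposite sign were 0.018 for Dsc2 in Cluster 1, 0.11 for Ppl in Cluster 2, and -0.20 for Pkp2 and 0.0095 for Dsc2 in CDH1. The same setting gave 0.15 for Dsg2 and -0.24 for Dsc2 in Clusters 1+2 minus Cluster 2, -0.13 for Pkp3 and -0.16 for Ppl in Cluster 1 minus Cluster 2, and 0.48 for Perp and 0.0079 for Dsc2 in Cluster 1 minus CDH1. It also gave 0.14 for Pkp2 in the Puro vector comparison, and 0.13 for Pkp1, 0.19 for Evpl and -0.25 for Dsc2 in Clusters 1+2 minus the summed effects. Under median centring the log2 values of opposite sign were 0.10 for Ppl in Cluster 2, 0.034 for Pkp1 in CDH1, and -0.057 for Pkp1 and 0.061 for Dsg2 in Clusters 1+2 minus Cluster 2. The same setting gave -0.023 for Pkp3 and 0.14 for Dsc2 in Clusters 1+2 minus Cluster 1, -0.23 for Ppl in Cluster 1 minus Cluster 2, and -0.25 for Dsp in Cluster 1 minus CDH1. It also gave -0.022 for Dsc2 in the Puro vector comparison. With an offset of 10 the log2 values of opposite sign were 0.011 for Pkp1 in CDH1, 0.15 for Perp in Cluster 1 minus Cluster 2, and 0.050 for Pkp3 in Cluster 1 minus CDH1. With scaled spread the log2 values of opposite sign were 0.046 for Pkp1 in CDH1, -0.0069 for Dsc2 in Clusters 1+2 minus Cluster 2, and -0.34 for Perp, -0.55 for Pkp3 and -0.11 for Evpl in Clusters 1+2 minus Cluster 1. The same setting gave 1.05 (limma adjusted p = 0.00674) for Perp in Cluster 1 minus Cluster 2, and 0.28 for Pkp3 in Cluster 1 minus CDH1. With the mean over probes the log2 value of opposite sign was 0.087 for Evpl in Clusters 1+2 minus the summed effects. With the second probe the log2 values of opposite sign were 0.046 for Ppl in CDH1, -0.13 for Ppl in Cluster 1 minus CDH1, and -0.022 for Evpl, 0.073 for Dsp and -0.072 for Ppl in the Puro vector comparison. The same setting gave 0.23 for Evpl in Clusters 1+2 minus the summed effects. Against the other Puro vector the log2 values of opposite sign were 0.081 for Dsg2 in Cluster 1, and 0.0014 for Dsc2 in CDH1.

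Leaving out 1 array changed signs within these ranges. Dsp ranged from -0.063 to 0.18 in Cluster 1 minus CDH1. Perp ranged from -0.086 to 0.060 in Cluster 1 minus Cluster 2. Ppl ranged from -0.060 to 0.079 in Cluster 1 minus Cluster 2. Evpl ranged from -0.16 to 0.052 in Clusters 1+2 minus the summed effects. Pkp1 ranged from -0.18 to 0.10 in CDH1. Pkp3 ranged from -0.12 to 0.030 in Cluster 1 minus CDH1. Dsg2 ranged from -0.10 to 0.017 in Cluster 1, -0.017 to 0.27 in CDH1, -0.23 to 0.15 in Clusters 1+2 minus Cluster 2, -0.27 to 0.021 in the Puro vector comparison and -0.18 to 0.20 in Clusters 1+2 minus the summed effects. Dsc2 ranged from -0.30 to 0.023 in Cluster 1, -0.10 to 0.0075 in CDH1, -0.18 to 0.25 in Clusters 1+2 minus Cluster 2, -0.31 to 0.10 in Clusters 1+2 minus Cluster 1, -0.074 to 0.35 in Cluster 1 minus Cluster 2, -0.26 to 0.067 in Cluster 1 minus CDH1, -0.12 to 0.21 in the Puro vector comparison and -0.037 to 0.39 in Clusters 1+2 minus the summed effects.

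Over all genes, calls numbered 1568 in Cluster 1, 521 in Cluster 2, 4688 in Clusters 1+2 and 2749 in CDH1; the alternatives gave 191 to 1872, 60 to 2278, 1860 to 5052 and 455 to 3828. Under median centring 2129 genes were higher and 149 lower in Cluster 2, 783 and 347 in Cluster 1, 1392 and 2140 in Clusters 1+2 and 3166 and 662 in CDH1. The repeat letters share a number; same-lettered arrays deviated together with r = -0.01 in Cluster 1, 0.27 in Cluster 2, 0.33 in Clusters 1+2 and 0.01 in CDH1. With a replicate block 5, 6, 7 and 5 genes were called in these comparisons, Pkp1 in Cluster 1 (limma adjusted p = 0.0341), Evpl in Cluster 2 (0.0496) and Ppl in Clusters 1+2 minus Cluster 1 (0.0269) became called, and Pkp3 between the Puro vectors (-0.39, 0.154) no longer was; no other call of the 9 genes changed. Low signal over background limits Dsg2, Dsc2 and the Dsp level in 3 control groups. The same holds for Pkp1 and Perp in the Puro vector group made for CDH1, and for the second probes of Ppl and Evpl.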

Other observations

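The effects of Cluster 1 and Cluster 2 alone were summed on the log2 scale and set against the effect of Clusters 1+2. This contrast was chosen after its values were seen and was then tested in the same limma fit, with adjustment over all genes. Of all genes, 1.42% were called above the sum and 2.47% below it.

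Dsp, the plakin that binds keratin, had a sum of 1.66 and a combined effect of 3.18, which was higher by 1.52 (SE 0.17, limma adjusted p = 0.000405). The plakophilin Pkp2 had a sum of 1.16 and a combined effect of 1.98, higher by 0.82 (SE 0.13, limma adjusted p = 0.00401). Perp had a sum of 3.90 and a combined effect of 2.89, and the difference was -1.01 (SE 0.12, limma adjusted p = 0.000653). The other 6 genes were not called: the differences were -0.46 for Pkp3, -0.30 for Ppl, -0.22 for Pkp1, -0.05 for Evpl, 0.01 for Dsg2 and 0.17 for Dsc2 (limma adjusted p between 0.220 and 0.991).

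The 3 calls held with any 1 of the 12 arrays left out. With the second Dsp probe the difference was 0.96 (limma adjusted p = 0.0630). The Dsp call also ended with processed signals (0.84), and the Perp call with outlier spots kept (-0.78). The Pkp2 call ended with an offset of 10, processed signals, median centring, scaled spread, the sample channel alone or outlier spots kept (values from 0.34 to 1.32). Cluster 1 was measured with the other dye and against another vector than Cluster 2 and Clusters 1+2, so dye and slide cannot be told apart from this difference.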
